A study of Mus musculus with 12 samples.

Results

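Chromatin at 9 genes that mark microglia of the undisturbed brain is described here: P2ry12, P2ry13, Tmem119, Cx3cr1, Siglech, Gpr34, Fcrls, Olfml3 and Sparc. Taken were all ATAC-seq peaks that carry one of these gene names in the merged peak tables, which is 67 of 60288 merged peaks in untreated mice and 57 of 54953 merged peaks in mice given lipopolysaccharide (LPS). The rule uses names only and no measured value. ATAC-seq counts cuts made by a transposase in open chromatin, so a tag in a peak marks accessible DNA and not RNA.

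The animals were C57BL/6J wild-type bone marrow chimeras, irradiated with 950 cGy and given wild-type marrow carrying the CD45.1 allele, and their brains were collected 3.5 or 9 months later per the labels, which tie no month to a library (the study's text gives 9 months and recipients of 6 weeks). From each brain, CD45.1 cells derived from the graft and CD45.2 cells of the irradiated host were sorted, in the study's gate as Ly6C/G-negative, CD11b+ and CD45 low. Mice 4, 5 and 6 were untreated, and mice 1, 2 and 3 received 2.5 mg/kg LPS, a bacterial cell wall component that activates Toll-like receptor signalling, 12 h before collection, which gives 12 libraries in 4 groups of 3. Host cells had been irradiated and graft cells had not, and this cannot be told apart from their origin.

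Microglia are the macrophages of the brain parenchyma, seeded from the yolk sac. In the resting brain they express a set of genes that other macrophages express at lower levels or not at all, and these genes are known to fall when microglia are activated by inflammation. P2ry12 and P2ry13 encode receptors for adenine nucleotides, and P2RY12 steers microglial processes toward released ATP and ADP. Cx3cr1 encodes the receptor for the neuronal chemokine fractalkine, Gpr34 a receptor for lysophosphatidylserine, Siglech a sialic acid binding lectin and Fcrls an Fc receptor-like molecule. Tmem119 encodes a transmembrane protein of the microglial surface, while Olfml3 and Sparc encode secreted matrix-associated proteins, and Sparc is also expressed by astrocytes and endothelium.

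Sequencing depth was 8392878 to 9107770 tags in the untreated libraries and 2966364 to 6556595 tags in the LPS libraries. The share of tags in merged peaks was 18.5% in the CD45.2 library of untreated mouse 4 and 29.7% to 39.0% in the other untreated libraries, and CD45.2 LPS mouse 1 was the shallowest library. Raw tags summed over the members' peaks ran from 1665 to 3693 per untreated library and from 505 to 1408 per LPS library. Values below are tags divided by a library size factor (normalised tags), within one table unless stated. In untreated mice, border macrophage markers summed to 1775 to 1873 normalised tags in graft libraries against 861 to 1005 in host libraries. Cd36 held a large part of that gap, with 606 ± 17 against 91.9 ± 28 (SD, n = 3). Of 10 tested markers 5 were higher in graft cells (7.35% of all genes were), 5 did not pass and none was lower. Monocyte markers had 0 of 8 past the test in either direction.

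Sequences of peaks that the results turn on are given from the mouse genome build mm9, 5′ to 3′ on the strand of the gene, with matches to searched motifs in capitals. Where a promoter peak ran into an annotated exon, the stretch outside the exon is given. The first 4 are promoters whose accessibility did not pass the reported test between graft and host (that of P2ry12 passed under 1 alternative, given with its values), and the last 2 are the intronic peaks with the smallest adjusted p in each direction in untreated mice. The last of them was chosen after its values were seen.
P2ry12 promoter, chr3:59066838-59066942, minus strand: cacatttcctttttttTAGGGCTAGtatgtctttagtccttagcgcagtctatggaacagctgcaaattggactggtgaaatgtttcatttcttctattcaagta
P2ry13 promoter, chr3:59014805-59014892, minus strand: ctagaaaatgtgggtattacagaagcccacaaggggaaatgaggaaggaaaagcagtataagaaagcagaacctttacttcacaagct
Cx3cr1 promoter, chr9:119977401-119977516, minus strand: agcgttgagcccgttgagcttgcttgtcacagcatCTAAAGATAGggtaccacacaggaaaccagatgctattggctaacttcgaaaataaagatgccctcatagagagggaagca
Siglech promoter, chr7:63023466-63023547, plus strand: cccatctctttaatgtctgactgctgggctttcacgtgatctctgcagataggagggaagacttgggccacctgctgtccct
P2ry12 intronic peak, chr3:59045593-59045748, minus strand: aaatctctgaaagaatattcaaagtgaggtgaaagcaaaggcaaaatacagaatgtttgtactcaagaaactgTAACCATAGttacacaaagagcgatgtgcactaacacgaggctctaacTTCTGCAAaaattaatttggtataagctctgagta
Cx3cr1 intronic peak, chr9:119964070-119964239, minus strand: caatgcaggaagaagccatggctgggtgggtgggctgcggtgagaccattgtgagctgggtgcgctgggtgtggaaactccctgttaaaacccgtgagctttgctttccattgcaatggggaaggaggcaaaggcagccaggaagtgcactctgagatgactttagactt

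Capitals mark MEF2 (CTANNNNTA, searched on both strands) in the P2ry12 promoter, the Cx3cr1 promoter and the P2ry12 intronic peak, and C/EBP (TTGCNNAA, both strands) at TTCTGCAA in the P2ry12 intronic peak. In the Cx3cr1 promoter a match on each strand overlaps the other. MEF2 and C/EBP factors are transcription factors active in myeloid cells. The MEF2 letters were in 11 of the 67 untreated member peaks (16.4%) and in 8.84% of all untreated peaks. The C/EBP letters were in 3 of 67 member peaks (4.48%) against 7.12% of all. PU.1 (GAGGAAGT), the factor of macrophage lineage, was matched in 4 of 67 (5.97%) against 8.57%, AP-1 (TGANTCA) in 3 of 67 against 6.23%, IRF (GAAANNGAA) in 5 of 67 (7.46%) against 6.11% and RUNX (TGTGGTT) in 3 of 67 against 4.12%. Member peaks had a median width of 142 bp and all peaks 132 bp. These letters are a description and not a map of bound sites.

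The first comparison asked whether these loci were as accessible in graft-derived cells as in host microglia of the same untreated brains. Summed over each gene's peaks, 0 of the 9 genes passed the test in either direction (DESeq2 Wald test across all genes, adjusted p under 0.05), where 7.35% of 16174 genes were higher in CD45.1 and 7.46% higher in CD45.2. At an unadjusted p under 0.05 the count was also 0 of 9, where 23.3% of all genes were, and edgeR's quasi-likelihood test passed 0 of 9. The log2 fold changes of CD45.1 over CD45.2 ran from -0.37 for Sparc to 0.22 for Olfml3. The widest end of the 9 intervals (95%, Wald) lay at 1.69-fold. Their median absolute log2 fold change was 0.18, and that of all tested genes was 0.18. Groups of 3 libraries overlapped for each of the 9 genes, while 16.1% of all genes had the 3 CD45.1 libraries above, and 17.1% below, the 3 CD45.2 libraries.

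**Figure D1:**
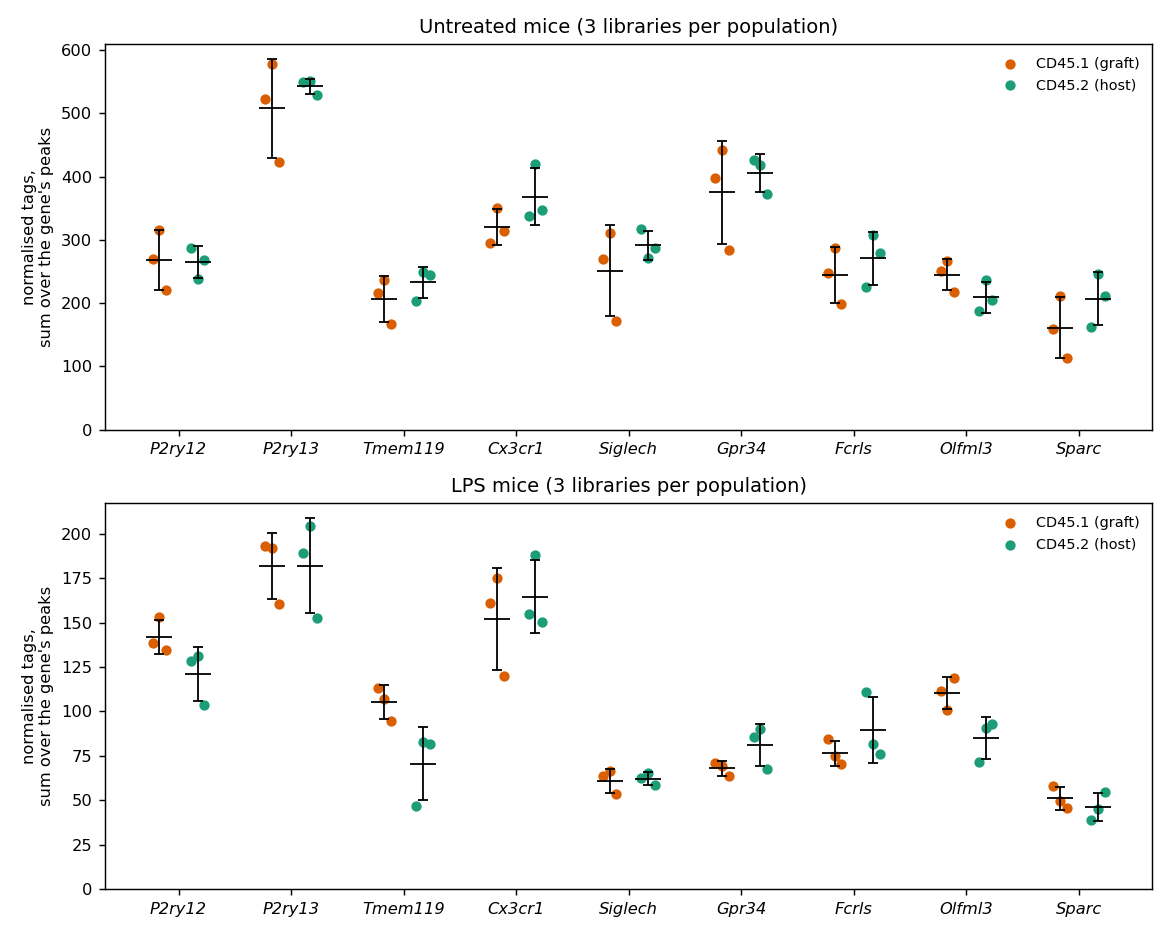
Normalised tags summed over the peaks of each gene (vertical axis) in the 3 CD45.1 and 3 CD45.2 libraries of untreated mice (top) and LPS mice (bottom), each dot 1 library, with bars for mean ± SD. In untreated mice the dots of both populations overlap for each gene; in LPS mice they separate for P2ry12, Tmem119 and Olfml3, all with CD45.1 above.

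P2ry12, which spans chr3:59020193-59066753 on the minus strand, had 6 peaks in untreated mice. Their summed normalised tags were 270, 315 and 220 in CD45.1 of mice 4, 5 and 6 and 288, 238 and 268 in CD45.2. CD45.1 was above CD45.2 in mouse 5 and below it in mice 4 and 6, and the log2 fold change was 0.03 ± 0.15 (SE, n = 3 per group, DESeq2 adjusted p = 0.96). Its neighbour P2ry13 (chr3:59011818-59014804, minus strand) had 10 peaks with 522, 578 and 423 tags in graft cells (CD45.1) and 549, 550 and 529 in CD45.2. The graft libraries spread on both sides of the narrow host values, with a log2 fold change of -0.09 ± 0.12 (DESeq2 adjusted p = 0.76). Within the body of P2ry12 and 20 kb on either side lay 16 untreated peaks, of which 6 were named for P2ry12 and 10 for P2ry13, since each peak takes the name of the nearest start site. Both genes also lie inside Med12l, a Mediator subunit gene.

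Cx3cr1 (chr9:119957811-119977400, minus strand) had 295, 351 and 315 tags in CD45.1 against 338, 421 and 347 in CD45.2. CD45.1 was lower in each of the 3 mice, with ratios of 0.873, 0.834 and 0.908, but the groups overlapped and the log2 fold change of -0.21 ± 0.13 did not pass (DESeq2 adjusted p = 0.36). The study describes this marrow as wild type, while its methods also name donors with reporter alleles at Cx3cr1 for chimeras in general, and the part of such an allele in these values was not tested. Gpr34 (chrX:13209215-13217984, plus strand) had 13 peaks, most of them in introns of the upstream gene Cask, with 398, 442 and 285 tags in CD45.1 against 427, 418 and 372 in CD45.2. Siglech (chr7:63023548-63034295, plus strand) had 270, 311 and 172 tags in CD45.1 against 317, 271 and 287 in CD45.2. For both genes CD45.1 of mouse 6 was the lowest of the 6 libraries, and for Siglech the log2 fold change was -0.21 ± 0.17 (DESeq2 adjusted p = 0.55).

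Fcrls (chr3:87054680-87067660, minus strand) had 248, 288 and 198 tags in CD45.1 against 225, 308 and 279 in CD45.2. Tmem119 (chr5:114243738-114250525, minus strand) had 216, 237 and 167 tags in CD45.1 against 204, 250 and 244 in CD45.2. Both sets overlapped, with log2 fold changes of -0.16 ± 0.16 and -0.18 ± 0.16. Olfml3 (chr3:103537623-103541924, minus strand) had 251, 266 and 218 tags in CD45.1 against 187, 236 and 205 in CD45.2, which was higher in CD45.1 in each of the 3 mice but not past the test (0.22 ± 0.15, DESeq2 adjusted p = 0.43). Sparc (chr11:55208002-55233582, minus strand) had 158, 211 and 114 tags in CD45.1 against 163, 246 and 211 in CD45.2, lower in CD45.1 in each mouse, and again not past the test (-0.37 ± 0.20, DESeq2 adjusted p = 0.26).

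A pair of settings put 1 gene past the test. Without CD45.1 of mouse 5, Sparc was lower in CD45.1 (log2 fold change -0.61, DESeq2 adjusted p = 0.037), and without any other single library 0 of 9 passed. Under a block for mouse together with a GC correction, P2ry12 was lower in CD45.1 (-0.62, DESeq2 adjusted p = 0.0034), where without the correction the blocked value was 0.01. CD45.1 of mouse 6 held the lowest value of the 3 graft libraries for 8 of the 9 genes, and CD45.1 of mouse 5 the highest for 9 of 9. Beside the lower Sparc values, astrocyte markers summed to 639 to 820 tags in CD45.1 against 1389 to 1568 in CD45.2 libraries. Of 6 tested markers, 3 were lower in CD45.1 (background 7.46% of all genes) and 1 higher (7.35%). These sums largely follow 1 gene, Slc1a3, with 333 ± 53 tags in CD45.1 against 982 ± 55 in CD45.2 (SD, n = 3). The part of astrocyte markers in the Sparc values was not tested.

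Per kilobase of peak, the order of levels in CD45.2 was Cx3cr1 with 440 ± 54 normalised tags per kb (SD, n = 3), Tmem119 with 359 ± 39, P2ry13 with 356 ± 8.0, P2ry12 with 350 ± 33, Fcrls with 274 ± 43, Olfml3 with 250 ± 29, Siglech with 243 ± 19, Sparc with 237 ± 48 and Gpr34 with 217 ± 16. Only P2ry12 and its neighbour below, Fcrls, were separated by more than the sum of their SDs. In CD45.1 Cx3cr1 was again highest (382 ± 34), followed by P2ry12 (355 ± 63) and P2ry13 (333 ± 51), and Sparc was lowest (185 ± 56). No neighbours in that order were separated by more than that sum.

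No untreated promoter peak had an adjusted p under 0.05 in the reported fit. The Tmem119 promoter peak (chr5:114250404-114250520) held 112, 101 and 70.2 normalised tags in CD45.1 libraries and 95.04, 101 and 109 in host libraries, and ranked at the 72.6th and 77.9th percentile of all promoter peaks by tags per base in the respective populations. The Cx3cr1 promoter held 112, 117 and 87.7 tags in CD45.1 against 111, 119 and 110 in CD45.2. P2ry12 had a weaker promoter peak, with 43.8, 56.1 and 37.6 tags in CD45.1 against 42.6, 39.9 and 33.3 in CD45.2, and its strongest site was an intronic peak 1878 bp downstream of the start (chr3:59064817-59064933) with 129, 131 and 104 against 136, 112 and 120. These sets overlapped. The log2 fold change of the P2ry12 promoter, 0.26 ± 0.30 (DESeq2 adjusted p = 0.71), turned to -1.07 with the mouse block and GC correction (adjusted p = 0.029), and was above 0 under the other alternatives run. That correction moved each of the 5 tested untreated member peaks under 41% GC, this promoter among them, by -1.31 to -1.29 on the log2 scale, and the other member peaks by -0.53 to 0.23. The P2ry13 promoter had log2 fold change -0.08 ± 0.27, that of Fcrls -0.04 ± 0.29, and the upstream Olfml3 promoter peak 0.03 ± 0.26. The Olfml3 promoter peak at 72 bp, which held slightly more tags, had -0.35 ± 0.29 (DESeq2 adjusted p = 0.55). The Siglech promoter held 59.7, 68.9 and 48.5 tags in CD45.1 against 81.1, 79.7 and 73.9 in CD45.2, without overlap, and its log2 fold change of -0.40 ± 0.24 did not pass (DESeq2 adjusted p = 0.31). Gpr34 had 3 weak promoter peaks, with means of 13.2, 19.4 and 18.5 tags in CD45.1 against 9.84, 28.3 and 27.4 in CD45.2. Their log2 fold changes were 0.36 ± 0.54, -0.56 ± 0.39 and -0.52 ± 0.42 (DESeq2 adjusted p = 0.81, 0.44 and 0.54). Sparc had no peak annotated as promoter. Its 5′ UTR peak at 148 bp held means of 31.5 against 48.1 tags, with -0.59 ± 0.32 (DESeq2 adjusted p = 0.25).

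**Figure D2:**
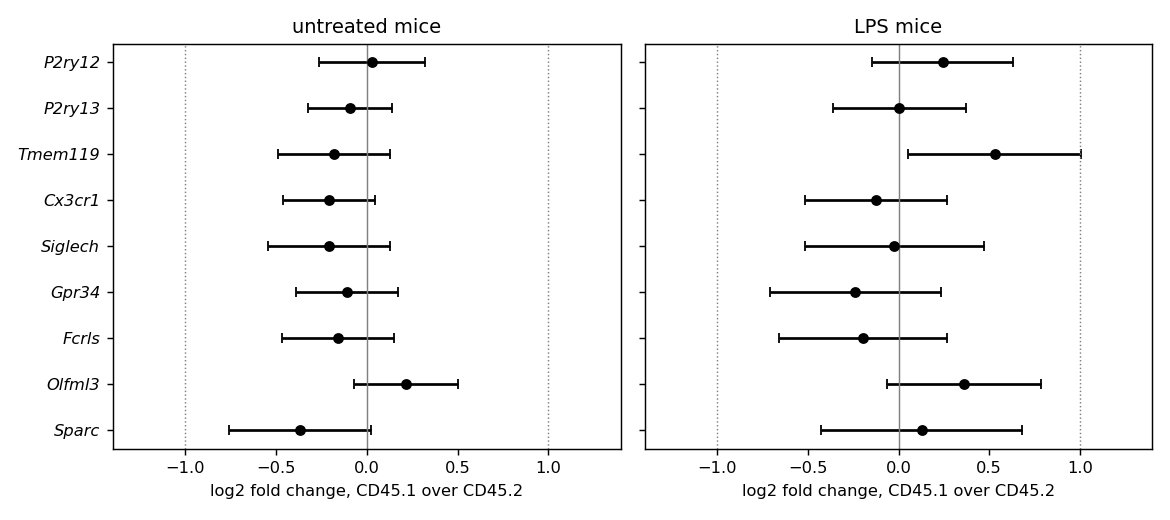
Log2 fold change of CD45.1 over CD45.2 (horizontal axis) for the summed peaks of each gene in untreated (left) and LPS mice (right), with 95% Wald intervals, and dotted lines at 2-fold. In untreated mice the interval of each gene crosses 0; in LPS mice only that of Tmem119 does not, and its adjusted p is 0.22.

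Peak by peak, 66 of the 67 untreated member peaks passed the filter on low counts. Of these, 2 were called (adjusted p under 0.01 and more than 4-fold), both higher in CD45.1, where 3.78% of 59170 peaks were called higher in CD45.1. None was called higher in CD45.2 (background 2.65%). Whatever the fold, 3 had an adjusted p under 0.05 and were higher in CD45.1 (background 8.54%) and 3 higher in CD45.2 (6.32%). The share of peaks that differed by less than 2-fold was 86.4% among members and 80.3% among all tested peaks, and their median log2 fold change was -0.06 against 0.00. In the lists of peaks found in single libraries, 37 of the 67 (55.2%) were present in all 6 untreated libraries, against 46% of all merged peaks. Those in CD45.1 libraries alone numbered 9 (13.4%, against 9.8% of all) and those in CD45.2 libraries alone 3 (4.48%, against 11.5%), and the lists ran from 36166 peaks in CD45.2 of mouse 4 to 69080. The peaks with the most tags of P2ry13, Gpr34 and Sparc lay at -18001, -57674 and -13092 bp from the start. Their log2 fold changes were -0.15 ± 0.17, -0.11 ± 0.26 and -0.56 ± 0.25 (DESeq2 adjusted p = 0.71, 0.88 and 0.14). By edgeR the Sparc peak had an adjusted p of 0.025.

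The strongest difference was at an intronic P2ry12 peak 21083 bp downstream of the start (chr3:59045593-59045748, also in an intron of Med12l). It held 33.1, 42.4 and 32.7 normalised tags in CD45.1 of mice 4, 5 and 6 and 2.46, 8.51 and 9.74 in CD45.2. The groups lay far apart, at 4.67-fold (log2 fold change 2.22 ± 0.46, DESeq2 adjusted p = 3.8e-05), and the peak was listed in 3 of 3 CD45.1 libraries and 0 of 3 CD45.2 libraries. With the mouse as a block the adjusted p was 0.0011, and with GC correction in addition the log2 fold change was 1.03 and the adjusted p 0.36. The peak has a GC content of 35.3%, among the 5 peaks that this correction moved most. Without CD45.2 of mouse 4 the log2 fold change was 1.98, under the 4-fold limit, with adjusted p = 0.00019. Its counterpart in LPS mice (chr3:59045576-59045718) held 11.3, 13.1 and 8.02 tags in CD45.1 against 0.876, 3.05 and 5.34 in CD45.2, without overlap, but its log2 fold change of 1.61 ± 0.76 did not pass (DESeq2 adjusted p = 0.26). This counterpart passed the low-count filter only through CD45.1 of mouse 1, with 14 raw tags. The LPS animals share no sample with the untreated ones.

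The other called peak lies in the 3′ UTR of Sparc (chr11:55208197-55208326), with 21.5, 22.4 and 17.97 tags in CD45.1 against 6.56, 2.71 and 4.87 in CD45.2. Raw tags were 23, 24.5 and 16.5 in CD45.1 and 4, 3.5 and 6 in CD45.2. Only CD45.1 thus brought the peak past the low-count filter. The peak was listed in 3 of 3 CD45.1 and 0 of 3 CD45.2 libraries, so its entry depended on the group where it was high. It was 4.44-fold higher in CD45.1 (log2 fold change 2.15 ± 0.59, DESeq2 adjusted p = 0.0034), the direction opposite to the gene's summed peaks. This call was lost with the mouse as a block (adjusted p = 0.032), with total tags as size factors (adjusted p = 0.011), with block and GC correction (adjusted p = 0.087), and without CD45.1 of mouse 4 (adjusted p = 0.040), CD45.1 of mouse 5 (0.035), CD45.2 of mouse 5 (0.081) or CD45.2 of mouse 6 (0.038), by DESeq2 in each case. No peak of the LPS table matched it.

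The smallest adjusted p in the other direction was at a Cx3cr1 intronic peak 13260 bp downstream of the start (chr9:119964070-119964239). It held 35.9, 73.9 and 50.1 tags in CD45.1 against 96.7, 128 and 86.4 in CD45.2, 1.95-fold higher in host cells in sets that did not overlap (log2 fold change -0.96 ± 0.26, DESeq2 adjusted p = 0.0030). It passed at 0.05 with the mouse as a block (adjusted p = 0.0092), but not with block and GC correction (0.051), with total tags as size factors (0.17), or when the graft library of mouse 4 (0.090) or the host library of mouse 5 (0.13) was left out. In LPS mice the peak held 48.5, 47.0 and 32.1 tags in CD45.1 against 55.2, 85.5 and 62.1 in CD45.2, again without overlap, with log2 fold change -0.69 ± 0.29 (DESeq2 adjusted p = 0.16). The other Cx3cr1 intronic peak, at 9367 bp, had a log2 fold change of 0.11 ± 0.20, and a peak in its 3′ UTR stood higher in CD45.1 in both tables without passing (1.19 and 1.00).

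Of the remaining untreated peaks at an adjusted p under 0.05, the P2ry13 peak at -24173 bp from its start, annotated to an exon of Med12l, was lower in CD45.1 (log2 fold change -0.89 ± 0.30, adjusted p = 0.021), as was the one at -9301 bp (-1.399 ± 0.52, adjusted p = 0.0498), both within the body of P2ry12. The Gpr34 peak at -32641 bp, in an intron of Cask, was higher in CD45.1 (1.38 ± 0.48, adjusted p = 0.032). None of these 3 met the limits for a called peak. Each was no longer under 0.05 with the mouse as a block, at adjusted p of 0.056, 0.16 and 0.14, or with total tags as size factors (0.31, 0.20 and 0.095). Under block and GC correction the Gpr34 log2 fold change was 0.09, and the 2 member peaks past 0.05 were both lower in CD45.1, the P2ry12 promoter and the Fcrls peak at -31716 bp (-1.88, adjusted p = 1.3e-06; in the reported fit -0.56 and 0.22). The 2 P2ry13 peaks and the Gpr34 peak also rose above 0.05 when 1 library was left out. The P2ry13 peak at -24173 bp did so without the graft library of mouse 4 or 6 or the host library of mouse 5 or 6 (adjusted p 0.055 to 0.22). The one at -9301 bp did so without any of the 6 (0.073 to 0.24), and the Gpr34 peak without any except CD45.2 of mouse 4 (0.057 to 0.33).

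**Figure D3:**
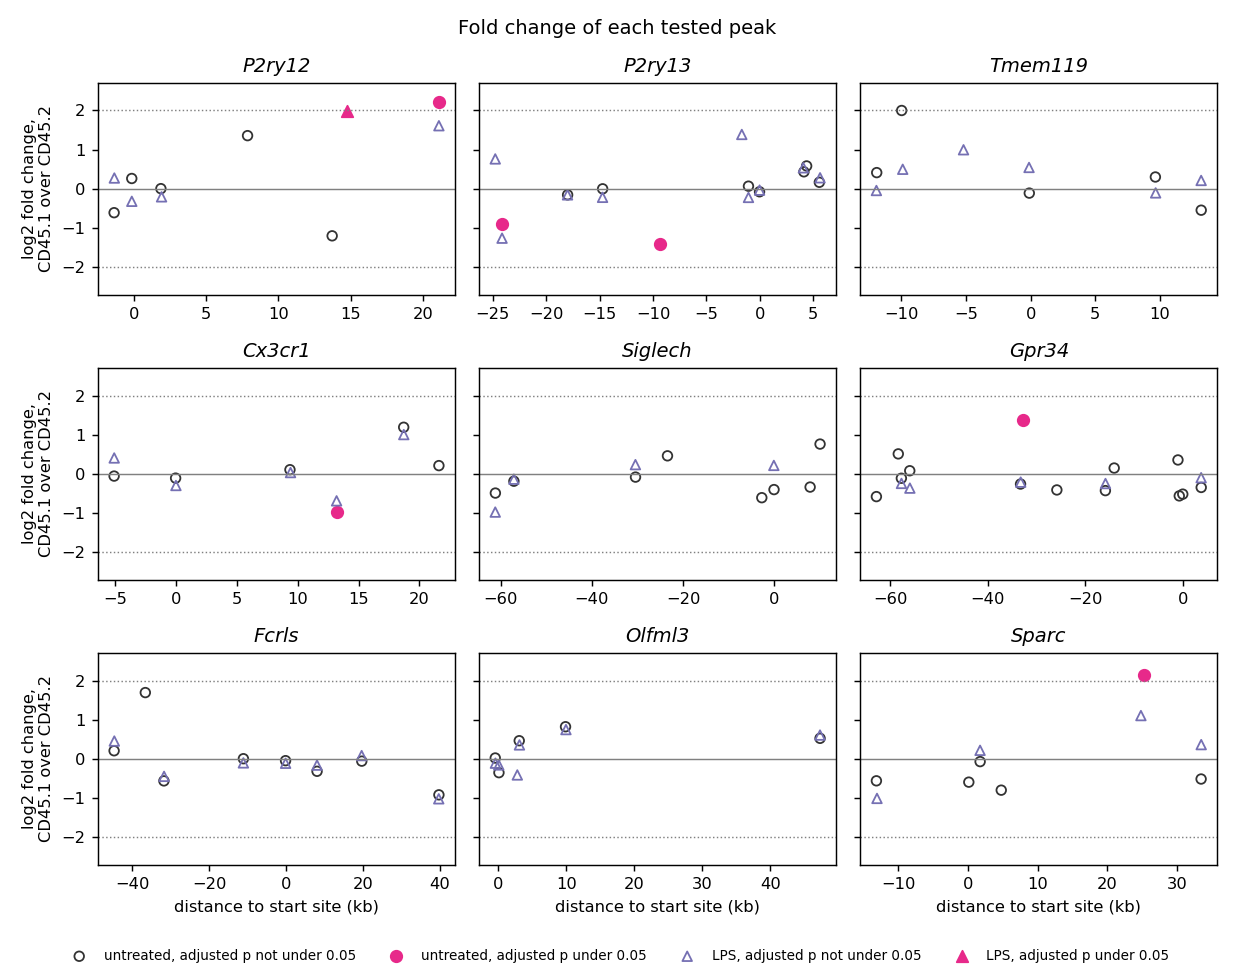
Log2 fold change of CD45.1 over CD45.2 (vertical axis) for each tested peak against its distance to the gene's start site in kb (negative is upstream), 1 panel per gene, circles for untreated and triangles for LPS mice, filled where the adjusted p is under 0.05, and dotted lines at 4-fold. Promoter peaks lie between -0.56 and 0.54, and of the filled symbols the nearest to a start site is at -9301 bp.

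**Figure D4:**
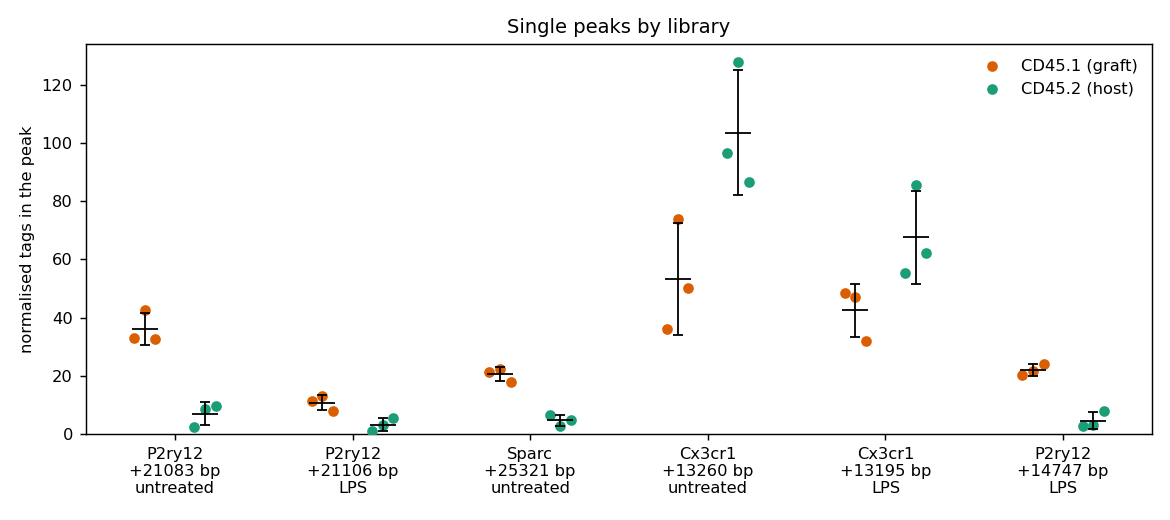
Normalised tags (vertical axis) in each library at the called peaks of P2ry12 and Sparc, the Cx3cr1 intronic peak and the P2ry12 peak of LPS mice, labelled by gene, distance to the start and treatment, with dots for libraries and bars for mean ± SD. CD45.1 and CD45.2 dots do not overlap in any of the 6 columns.

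In LPS-treated mice the same question gave 0 of 9 genes past the test, against a background of 4.08% of 15722 genes higher in CD45.1 and 2.98% higher in CD45.2. At an unadjusted p under 0.05 the count was 1 of 9, where 16.7% of all genes were, and edgeR passed 0 of 9. Tmem119 was the gene with the smallest p. It had 113, 107 and 94.6 tags in CD45.1 of mice 1, 2 and 3 and 46.7, 83.0 and 81.8 in CD45.2, above in each mouse and without overlap, with log2 fold change 0.53 ± 0.24 (DESeq2 adjusted p = 0.22). The CD45.1 to CD45.2 ratio was 2.43 in mouse 1, whose CD45.2 library was the shallowest, and 1.29 and 1.16 in the others, and without that library the log2 fold change was 0.34. Over the gene body and 20 kb on either side, whatever the peaks' names, it was 0.17. P2ry12 (139, 153 and 134 against 129, 131 and 104) and Olfml3 (112, 101 and 119 against 71.3, 90.4 and 93.1) also had the 3 CD45.1 libraries above the 3 CD45.2 libraries, with log2 fold changes of 0.24 ± 0.20 and 0.36 ± 0.22 and adjusted p of 0.61 and 0.42. Among all genes 13.1% had the CD45.1 libraries all above and 12.6% all below.

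The other 6 genes overlapped between the populations after LPS. Cx3cr1 had 161, 176 and 120 tags in CD45.1 against 155, 188 and 151 in CD45.2, and P2ry13 had 193, 192 and 160 against 189, 205 and 153. Siglech had 63.5, 66.2 and 53.3 against 62.5, 65.5 and 58.3, Gpr34 had 71.2, 69.5 and 63.4 against 85.4, 90.0 and 67.6, Fcrls had 84.3, 74.8 and 70.6 against 111, 81.7 and 75.9, and Sparc had 58.1, 49.7 and 45.6 against 38.8, 45.0 and 54.5. Their log2 fold changes ran from -0.24 for Gpr34 to 0.13 for Sparc. The shallower LPS libraries gave wider intervals. The outermost end, at 2.01-fold, was that of Tmem119 with CD45.1 higher, and no other gene's interval reached that size in either direction. That of Siglech ran from 0.70- to 1.39-fold and that of Cx3cr1 from 0.70- to 1.20-fold.

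Of the 57 LPS member peaks 51 passed the filter, and 0 were called in either direction (background 1.78% of 49180 peaks higher in CD45.1 and 1.19% higher in CD45.2). At a DESeq2 adjusted p under 0.05, 1 was higher in CD45.1 (background 4.08%) and 0 higher in CD45.2 (2.38%). An unadjusted p under 0.05 was found for 7 of 51 (13.7%), against 15.5% of all tested peaks. By edgeR 0 were called at the limits of 0.01 and 4-fold, but 5 had an adjusted p under 0.05, 3 higher and 2 lower in CD45.1. The 1 peak past 0.05 by DESeq2 was an intronic P2ry12 peak 14747 bp downstream of the start (chr3:59051926-59052086). It held 20.2, 21.5 and 24.1 tags in CD45.1 against 2.63, 3.05 and 8.02 in CD45.2, at a log2 fold change of 1.98 ± 0.56 (DESeq2 adjusted p = 0.011). With total tags as size factors it was called (2.10, adjusted p = 0.0078), and with the mouse as a block its adjusted p was 0.051. Without any 1 graft library or the host library of mouse 2 its adjusted p was 0.060 to 0.17. A matched untreated peak was not found. In the single-library lists, 13 of the 57 peaks (22.8%) were present in all 6 LPS libraries, against 32.4% of all merged peaks, 5 (8.77%) in CD45.1 libraries alone, against 16.4%, and 10 (17.5%) in CD45.2 libraries alone, against 17.9%, from lists of 24115 to 43462 peaks.

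Of the members' peaks, 44 were matched between the tables and 43 were tested in both. The untreated and LPS comparisons use different mice, and 26 of the 43 (60.5%) had the same sign of CD45.1 over CD45.2, against 67.3% of 37351 matched peaks. Across the 43 peaks the correlation of the 2 log2 fold changes was 0.77, and across all matched peaks 0.83, as a description in which peaks of 1 library share depth and base composition. Examples among the 26 were the P2ry12 peak at 21083 bp, the Cx3cr1 peaks at 13260 and 18705 bp and the Fcrls peak at 39732 bp downstream. The Olfml3 peaks at 9865 and 47301 bp were also among them. These examples were named by no set rule, and none passed in LPS mice (DESeq2 adjusted p 0.16 to 0.70).

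Whether the CD45.1 to CD45.2 ratio differed between LPS and untreated mice was tested on matched peaks in 1 model over 12 libraries. None of the 9 genes passed (background 0.0409% of 14676 genes with a larger and 0.15% with a smaller ratio after LPS), 1 of 9 had an unadjusted p under 0.05, where 6.2% of all genes had, and edgeR passed 0 of 9. The largest terms were Sparc with 0.68 ± 0.42 and Tmem119 with 0.57 ± 0.28 on the log2 scale (DESeq2 adjusted p = 0.78 and 0.74), and that of P2ry12 was -0.01 ± 0.24.

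The same model compared LPS with untreated mice inside each population. Treatment and peak table go together here, because the authors merged and counted peaks separately for each treatment, and LPS intervals were wider (ratio of matched peak width 1.22 over all genes and 1.10 to 1.39 among the 9), so the treatment cannot be told apart from the table. In CD45.2 host microglia, 4 of 9 genes were lower after LPS (background 4.98%) and 0 higher (10.4%). Tmem119 had 138, 169 and 164 matched tags in untreated mice 4, 5 and 6 and 58.4, 95.1 and 80.9 in LPS mice 1, 2 and 3, sets that did not overlap, and fell by 0.97 ± 0.20 on the log2 scale (DESeq2 adjusted p = 5.2e-05). Siglech went from 163, 149 and 152 tags to 90.2, 94.4 and 85.7, also apart, and fell by 0.77 ± 0.19 (DESeq2 adjusted p = 0.0014). Fcrls (147, 210 and 188 to 155, 108 and 107) fell by 0.61 ± 0.19, with overlap and a DESeq2 adjusted p of 0.015. P2ry13 (335, 346 and 328 to 260, 285 and 214) fell by 0.43 ± 0.14 without overlap, with an adjusted p of 0.023. Gpr34 and Olfml3 also had their 3 LPS libraries below the untreated ones, at -0.40 each, but did not pass (adjusted p = 0.15 and 0.097).

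In CD45.1 graft cells, 2 of 9 genes were lower after LPS (background 11.9%) and 1 higher (15.6%). Fcrls (157, 191 and 127 tags to 120, 109 and 103) fell by 0.52 ± 0.20 and P2ry13 (324, 356 and 272 to 249, 258 and 217) fell by 0.40 ± 0.14, with DESeq2 adjusted p of 0.036 and 0.026 and no overlap in either gene. Sparc (29.7, 46.4 and 20.5 to 56.0, 63.8 and 49.9) was higher after LPS by 0.81 ± 0.30 (DESeq2 adjusted p = 0.027), on 2 matched peaks. Tmem119 and Siglech had log2 fold changes of -0.40 ± 0.20 and -0.43 ± 0.20 in the graft and did not pass (adjusted p = 0.11 and 0.085). P2ry12 and Cx3cr1 had values near 0 in both populations, at -0.01 and 0.05 in CD45.1 and 0.00 and -0.04 in CD45.2, with intervals within -0.34 and 0.36. The median over the 9 genes was -0.40 in each population, and over all genes 0.01 and 0.00.

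**Figure D5:**
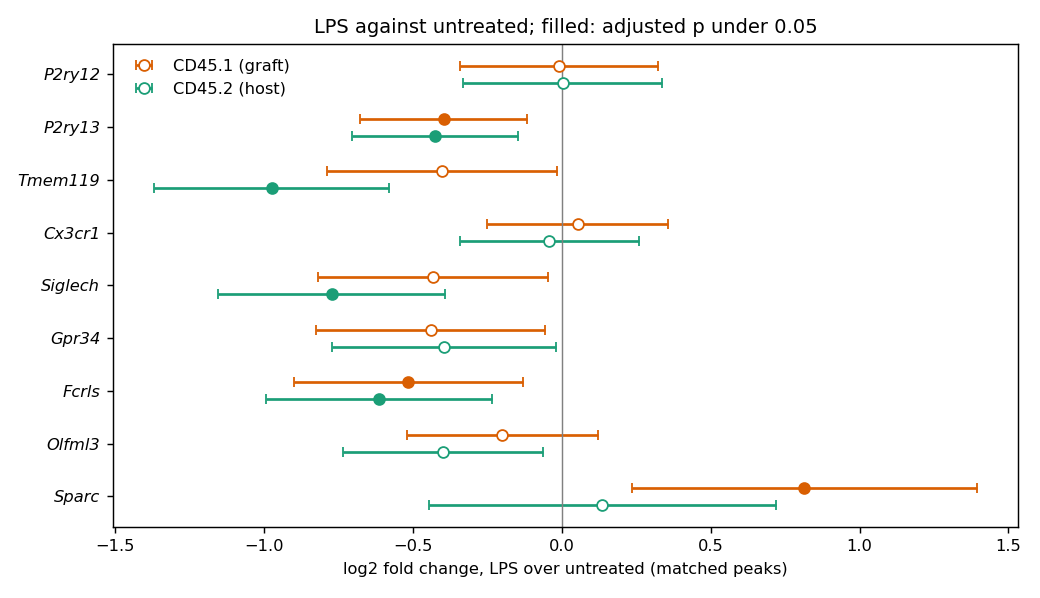
Log2 fold change of LPS over untreated on matched peaks (horizontal axis) for each gene in CD45.1 and CD45.2 cells, with 95% Wald intervals, filled where the adjusted p is under 0.05. Tmem119 and Siglech lie farthest below 0 in CD45.2, P2ry12 and Cx3cr1 lie near 0 in both populations, and Sparc in CD45.1 lies above 0.

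The calls in Tmem119 and Siglech in CD45.2 held without each of the 12 libraries in turn. The other calls did not. Fcrls in CD45.2 lost its call without CD45.2 untreated mouse 5 or 6 or CD45.2 LPS mouse 2 or 3 (adjusted p 0.084 to 0.16), and P2ry13 in CD45.2 without CD45.2 untreated mouse 4, 5 or 6 or CD45.2 LPS mouse 3 (0.057 to 0.20). In CD45.1, Fcrls lost it without CD45.1 untreated mouse 4 or 5, CD45.2 untreated mouse 6 or CD45.1 LPS mouse 2 or 3 (0.052 to 0.22), P2ry13 without CD45.1 untreated mouse 4 or 5 or CD45.1 LPS mouse 3 (0.095 to 0.17), and Sparc without CD45.1 untreated mouse 4 or 6 or any CD45.1 LPS mouse (0.052 to 0.16). Without CD45.1 untreated mouse 6, Tmem119, Siglech and Gpr34 were lower after LPS in CD45.1 as well (adjusted p = 0.031, 0.012 and 0.0083). With total tags as size factors 0 of 9 passed in either population, while Tmem119 in CD45.2 still stood at -1.12 (DESeq2 adjusted p = 0.10). With matching at 25% overlap Sparc changed direction, to -0.14 in CD45.1 (adjusted p = 0.71) and -0.76 in CD45.2 (adjusted p = 0.019).

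A list of 40 other homeostatic microglia genes was set beside the 9. In untreated mice 39 were tested, of which 6 were lower in CD45.1 (background 7.46% of all genes) and 1 was higher (7.35%). The other 32 did not pass, and the median log2 fold change of the list was -0.08. Sall1, a transcriptional regulator of microglial identity, had 111 ± 82 tags in CD45.1 against 1042 ± 65 in CD45.2 (SD, n = 3; log2 fold change -3.23 ± 0.76, DESeq2 adjusted p = 0.00032). Its relative Sall3 had 101 ± 17 against 371 ± 51 (-1.88 ± 0.16, adjusted p = 1.4e-28), and Upk1b, a uroplakin, 63.8 ± 7.6 against 119 ± 21 (-0.91 ± 0.22, adjusted p = 0.00037). The 1 higher gene was Tgfbr2, a receptor subunit for TGF-β (0.25 ± 0.08, adjusted p = 0.018). In LPS mice 39 were tested and only Sall1 and Sall3 passed, both lower in CD45.1 (-3.15 ± 0.25 and -1.13 ± 0.22, DESeq2 adjusted p = 4.3e-34 and 1.4e-05). Among all genes 2.98% were lower and 4.08% higher in CD45.1 there.

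Among 9 other genes listed as purinergic receptors (6 with P2ry names, with P2rx4, P2rx7 and Adora3), 7 were tested in each table and 1 passed. Not all of the 6 need have purines as ligands. For P2ry1, another ADP receptor, untreated graft libraries held 59.8 ± 34 tags and host libraries 4.47 ± 1.9 (SD, n = 3), a difference of 3.80 ± 0.54 on the log2 scale (DESeq2 adjusted p = 9.9e-11), and of 3.57 ± 0.59 in LPS mice, both higher in CD45.1 (adjusted p = 1.7e-07). No test compared P2ry1 with the 9 genes directly.

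Markers of other cells were counted in the same gene fits (log2 fold change of CD45.1 over CD45.2, DESeq2). Among all genes 7.35% were higher and 7.46% lower in CD45.1 of untreated mice, and 4.08% higher and 2.98% lower after LPS. Of border macrophage markers Cd36 (2.74), Ms4a7 (1.38), F13a1 (1.31), Pf4 (2.04) and Mrc1 (0.89) were higher in untreated graft cells, and after LPS 3 of 10 were higher, Cd36, Mrc1 and Cd163. Monocyte markers had 0 of 9 past the test after LPS. Neutrophil markers had 1 of 4 higher (Mmp8, 1.77) and 1 lower (S100a9, -1.16) in untreated mice, and 1 of 7 higher after LPS. Lymphocyte markers had 3 of 5 higher (Ms4a1, 1.73, Ncr1, 3.54, and Cd3d, 0.70) and 1 lower (Lck, -0.92) in untreated mice and 1 of 5 higher after LPS. Of neuron markers Map2 (3.45) was higher and Snap25, Syt1 and Rbfox3 lower of 7 tested, with 1 higher and 2 lower of 8 after LPS. Of astrocyte markers Slc1a3 (-1.56), Slc1a2 (-0.68) and Aldh1l1 (-0.89) were lower and Gja1 (0.75) higher, with 1 lower and 1 higher of 6 after LPS. Oligodendrocyte lineage markers had 1 lower (Mog, -0.85) of 8 and 1 of 7 after LPS, and endothelial and pericyte markers 1 lower (Cdh5, -2.51) and 1 higher (Pdgfrb, 0.72) of 6 and 1 lower of 6 after LPS. The part of such cells in the values of the 9 genes was not tested.

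By the pattern over 12 libraries, the genes most like a member (Pearson r of log2 normalised tags on matched peaks, among 12749 genes) were Tmem40, Shc4 and Ctsd for Tmem119 (r = 0.96, 0.96 and 0.95), Polr1a for Fcrls (0.96), Col2a1 for Siglech (0.97), Col27a1 for P2ry13 (0.95) and for Gpr34 (0.94), and BC025920 for Olfml3 (0.96). For P2ry12 the highest was March9 (0.84), for Cx3cr1 Ubash3b (0.86) and for Sparc Fam92b (0.88). Among the 9 themselves, Siglech and Gpr34 were the most alike (0.92), followed by P2ry13 and Siglech (0.92), while P2ry12, Cx3cr1 and Sparc had no other member above 0.46. These r values also carry the difference between treatments, which goes with the table.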

How the data were processed

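The 12 ATAC-seq libraries were processed by the authors, and the submitters' processing notes name bcl2fastq 2.17.1.14, Bowtie2, Picard 1.108, HOMER and mouse build mm9, without roles. The deposited tables hold estimated counts, which are unnormalised tags per merged peak in steps that need not be whole (49.1% and 47.7% of values) with the authors' nearest-gene annotation, and were made separately for untreated and LPS libraries. Peak lists per library, deposited by the authors, give a fold over the local region as a ratio and were called at a false discovery rate of 0.001 and 4-fold over local signal, per the file headers. They were used for presence of a peak only.

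From these tables, tags were rounded and tested with DESeq2 1.42.0 (Wald test, median-of-ratios size factors, 3 against 3 libraries, peaks above 10 tags in at least 1 library, Benjamini-Hochberg adjustment over all peaks or genes), with a peak called where its adjusted p was under 0.01 and its change exceeded 4-fold. The study states that fold and p limit without saying that the p was adjusted. Gene values were sums over peaks of 1 gene name. Peaks of both tables were matched by 50% reciprocal overlap and gene name (39191 pairs) for the 12-library model. edgeR 4.0.16 was an alternative, as were other filters, size factors, matching, left-out libraries, a mouse block and GC correction. Gene fits of CD45.1 against CD45.2 and of the change of that ratio were tested on simulated data. The peak fits, the mouse block, the GC correction and LPS against untreated were not. Members, lists and motifs were chosen with earlier results of these data known. Named genes were all 9 members, with their promoter, strongest and called peaks in untreated mice. Of the homeostatic and purinergic lists, up to 3 genes with the smallest adjusted p in each direction were named, among those that passed in untreated mice. Marker lists for other cells were counted whole, and their genes that passed in untreated mice were named.

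Both populations came from the same animals, so the mouse number pairs the libraries. Deviations from group means correlated at 0.081 to 0.087 for the same untreated mouse and at -0.066 to 0.15 for the same LPS mouse. Between different mice the values were -0.10 to 0.0010 untreated and -0.16 to 0.12 after LPS. In LPS mice the 2 ranges overlapped, so the values do not set paired libraries apart there. The tables' coordinates were inside the chromosomes of the mm9 genome used for sequence. Arms of 3 animals limit the precision.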

Additional observations from a re-analysis of the deposited data

How the results depend on the processing

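Counts of member peaks called in untreated mice (2) fell to 1 with total tags as size factors, to 1 with a mean count of at least 20, to 1 with the mouse as a replicate block and to 0 with the replicate block and GC correction, and ranged from 1 to 2 when 1 library was left out. In LPS mice the count of 0 became 1 with total tags and stayed at 0 when 1 library was left out. The count of genes past the test in untreated mice (0) became 1 with the replicate block and GC correction, where P2ry12 turned from 0.03 to -0.62, its promoter peak from 0.26 to -1.07 and the Fcrls peak at -31716 bp from -0.56 to -1.88, the last 2 being the peaks past 0.05 there, and ranged from 0 to 1 without 1 library. In LPS mice and for the change of the ratio between treatments it was 0 under each setting run. For LPS against untreated, total tags gave 0 genes in CD45.1 (3 in the reported fit) and 0 in CD45.2 (4), and leaving out 1 library gave 0 to 5 in CD45.1 and 2 to 4 in CD45.2. At 25% overlap Sparc reversed to -0.14 in CD45.1 and -0.76 in CD45.2. The causes were not tested. Total tags moved the median log2 fold change of all peaks in LPS mice to 0.14 and that of all genes for LPS against untreated in CD45.2 to -0.11. Apart from these, the replicate block changed the calls and the results at 0.05 given with the single peaks. It changed no gene call for CD45.1 against CD45.2 or for the change of that ratio. LPS against untreated was not fitted with a block. At an adjusted p under 0.05 the member peaks numbered 1 to 12 in untreated mice (6 in the reported fit, 12 with edgeR) and 0 to 5 in LPS mice (1, and 5 with edgeR). The depth of the LPS libraries limits the fold that could be seen there.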
